A study of Mus musculus with 10 samples.

Results

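The cells described here are candidate fibroblasts and myofibroblasts of the mouse kidney cortex, picked from Drop-seq single-cell libraries by the transcripts they contained. A barcode was kept when it held at least 500 detected genes and at most 50% mitochondrial transcripts. A kept cell became a member when at least 2 of the 5 genes Col1a1, Col1a2, Col3a1, Dcn and Pdgfra were detected and no transcript of Ptprc, C1qb, Pecam1, Kdr, Havcr1 or Myh11 was. This gave 210 members among 52797 kept cells, or 0.398%. The 5 required genes chose the members, so their levels are given as a description and carry no test.

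All samples were kidney cortex from mice aged 4 weeks. The control was normal kidney, and the other groups were injured kidneys taken on days 1, 2, 4, 7, 11 and 14. The control and days 1, 2 and 4 had 1 library each, and days 7, 11 and 14 had 2 each. The kind of injury, the strain and the sex are not stated in the labels, and no transgene or drug is named. Nothing in the labels says that the libraries of a day came from different animals, so p-values measure only the spread between these libraries, which may be technical.

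Fibroblasts of the kidney lie in the interstitium between tubules and make its collagen scaffold. After injury they can divide, deposit fibrillar collagen, fibronectin and other matrix, and take on smooth muscle actin fibres, a state called the myofibroblast, which is known for its part in fibrosis. TGF-beta and PDGF are the ligands best known to drive that state. Pericytes and mesangial cells, the contractile support cells of capillaries and glomeruli, share several of these transcripts, including PDGF receptors and collagens.

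The members were few in every library. Their median depth was 1697 unique molecular identifiers (UMIs, each counted as 1 captured transcript), from 698 to 74135 per member. Per library, the median UMIs of kept cells ran from 1244 to 2661. Both day 11 libraries lost many barcodes to the filter, keeping 5409 of 10800 and 5283 of 10711. Their deposited counts included barcodes down to 300 genes, whereas every other library was deposited with at least 500 genes per barcode. Between 0 and 11 barcodes were shared by any pair of libraries, and 0 members were. Scrublet's automatic threshold marked at most 6 cells of a library and was not used, so the highest-scoring 5% of each library were marked as possible doublets, among them 14 members.

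The share of kept cells that were members was lowest on day 14 and highest in 1 day 7 library and on day 2. Members numbered 20 of 6134 kept cells in the control, which is 0.326% with an exact (Clopper-Pearson) 95% interval of 0.199% to 0.503%. Day 1 had 10 members (0.280%), day 2 had 40 (0.979%, interval 0.700% to 1.33%) and day 4 had 27 (0.421%). The day 7 libraries had 15 members (0.414%, interval 0.232% to 0.682%) and 55 members (1.07%, interval 0.805% to 1.39%). The interval of day 2 and that of the larger day 7 library lay above the control's, and the smaller day 7 library overlapped it. With 3 or more required genes the control share was 0.0489% (interval 0.0101% to 0.143%) and the day 7 shares were 0.359% (0.191% to 0.613%) and 0.951% (0.704% to 1.25%), a description only, since these genes chose the members. On day 11 the libraries had 31 members (0.573%, interval 0.390% to 0.813%) and 8 members (0.151%, interval 0.0654% to 0.298%). On day 14 the first had 0 members among 6941 cells, so that shares up to 0.0432% remain possible (the one-sided limit set by 3 counts), and the second had 4 of 6183 (0.0647%). Intervals and such limits cover counting error only.

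Replicates of a day disagreed by more than counting error, because the intervals of the day 7 libraries did not overlap and neither did those of day 11. As day means, the shares were 0.741% ± 0.462 (SD, n = 2) on day 7, 0.362% ± 0.298 (SD, n = 2) on day 11 and 0.0323% ± 0.0457 (SD, n = 2) on day 14. Across the 9 injured libraries, the share and log2 of the day had a Spearman rho of -0.565 (two-sided exact permutation p = 0.118, 0.237 after Benjamini-Hochberg adjustment over both measures) and a Pearson r of -0.355 (exact permutation p = 0.350, adjusted 0.350). Without the 2 libraries farthest from the median day, those of days 1 and 2, r was -0.525 (exact permutation p = 0.238) and rho was -0.716 (exact permutation p = 0.0794). Without the day 1 library alone, rho was -0.752 (exact permutation p = 0.0397, unadjusted and the lowest with 1 library left out). There r was -0.690 (exact permutation p = 0.0593). With every cell thinned to 500 UMIs, rho over the 9 libraries was -0.658 (exact permutation p = 0.0609). Fewer fibroblasts in the tissue and fewer fibroblasts released into suspension cannot be told apart here. The barred genes also removed different numbers of cells with at least 2 required genes, 21 on day 1, 16 on day 2 and 20 on day 4. The part of that removal in the shares and their trend was not tested.

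**Figure D1:**
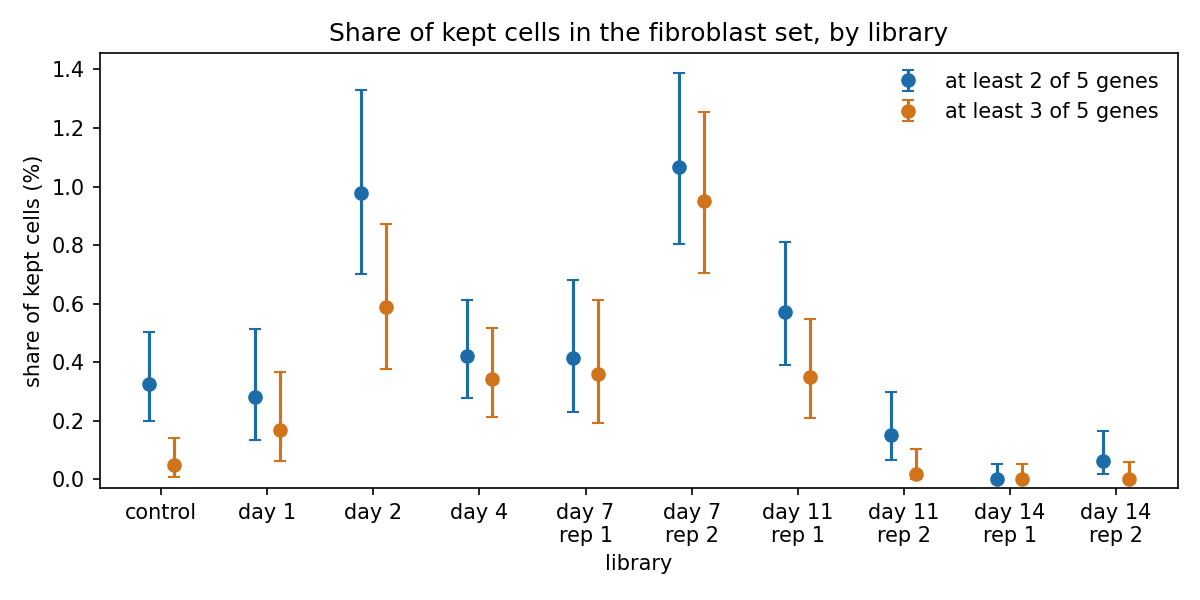
Share of kept cells (%, vertical axis) in each library (horizontal axis) that met the rule with at least 2 of the 5 genes (blue) or with at least 3 (orange), with exact 95% binomial intervals. The day 7 libraries stand at 0.414% and 1.07%, and no day 14 cell had 3 of the genes.

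How many of the 5 genes a member carried separated the libraries. In the control, 17 of 20 members had exactly 2 genes, and in 12 of these the pair was Col1a2 and Pdgfra. In all, 73 members had exactly 2 genes, just inside the rule, and 1240 kept cells with 1 gene and no barred transcript lay just outside it. Members with 3 or more genes numbered 137. The control had 3 of 20 such members, day 1 had 6 of 10, day 2 had 24 of 40 and day 4 had 22 of 27. The day 7 libraries had 13 of 15 and 49 of 55, those of day 11 had 19 of 31 and 1 of 8, and none of the 4 day 14 members qualified. Another 118 cells carried at least 2 required genes and were barred, 2 to 21 per library. Havcr1, the injured tubule marker, was present in 12 of the 21 barred cells of day 1, 4 of the 16 of day 2 and 15 of the 20 of day 4.

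Levels are given as CPM, the UMIs of a gene per 1000000 UMIs. Among kept cells as a whole, the control stood at 1.02 CPM of Col1a1, the alpha 1 chain of type I collagen, day 1 at 8.54, day 2 at 30.3 and day 4 at 9.42 CPM. The day 7 libraries stood at 13.96 and 26.7 CPM, those of day 11 at 9.81 and 1.61 CPM, and those of day 14 at 0.185 and 0.208 CPM. Members held 56.1% of these Col1a1 UMIs on day 2, 89.4% in the larger day 7 library, 5.88% in the smaller day 11 library and 0 of 4 in the first day 14 library, and the rest came from other kept cells. Col1a1 is a required gene, so these levels are a description with no test.

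The label was checked by clustering the 210 members without the 5 required genes, the barred genes and the mitochondrial genes. They fell into 6 clusters, and the label held for only some of them. Cluster 1, with 99 members, was fibroblast-like: it was led by Tnc (tenascin C, a matrix glycoprotein of wounds, 789 CPM against 56.2 in the other members), Spon1, Smoc2, Fbln2, Vcan and Tcf21, a transcription factor of kidney stromal cells (836 CPM against 119). Of these members, 87 had 3 or more required genes. Cluster 3, with 22 members, was led by cell-cycle genes, among them Prc1, Top2a and Mki67. In each of clusters 1 and 3, 7 of the 9 fibroblast markers were at 2 times the other members or more, but 4 of the 7 were required genes. The other 3 were Fbln1, Mfap5 and Dpt in cluster 1 and Lum, Fbln1 and Dpt in cluster 3.

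Cluster 2, with 37 members, had the markers of another cell type. Its 10 leading genes by fold included Mrc1, Cep112, Itga8, the integrin alpha 8 chain known from mesangial cells (2888 CPM against 225), Sfrp2 (3940 CPM against 319) and Gata3 (1313 CPM against 133). Of the 14 mural and mesangial markers, 7 were at least 2 times higher than in the other members, and so were 5 of the 10 endothelial markers, Plvap, Eng, Esam, Ehd3 and Cd34. Itga8 and Gata3 are on the first list and no endothelial marker was among the 10 leading genes, so the cluster was called mural and mesangial-like after that list. The 7 raised markers were Mcam, Itga8, Gata3, Ptn, Serpine2, Agtr1a and Pdgfrb, whereas the pericyte and smooth muscle markers Rgs5, Cspg4, Notch3 and Kcnj8 were not raised in it but in other clusters. Its 15 control members had 0 UMIs of Acta2 and of Tagln. Only 4 of its members had 3 or more required genes, 31 had a Pdgfra UMI, and 1 had a Col1a1 UMI. Its leading gene by fold, the haemoglobin gene Hbb-bs, came almost wholly from 1 control cell. In the control members, that cell held 2506 of the 2507 UMIs of the 5 erythroid markers, which are haemoglobin genes and Alas2.

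The remaining clusters did not carry the label cleanly. Cluster 4, with 22 members, was led by Umod, Lcn2, Slc12a1 and Aqp2, genes of the thick limb and the collecting duct. It included the deepest member, a day 2 cell of 74135 UMIs that made up 28.8% of that library's member UMIs. Deep members weigh most in these summed levels. Umod, Lcn2 and Aqp2 were each in only 40.9% of the members of cluster 4, and Slc12a1 in 31.8%. The median tubular share of its members was 1.13%. Of its 13 day 2 members, 10 had an Itga8 UMI. Cluster 6, with 11 members, was led by proximal tubule genes such as Spink3, Kap and Slc34a1. Clusters 4 and 6 are called the tubular clusters below, after their leading genes only. Cluster 5, with 19 members of which 17 came from day 2, was led by Ly6c1, Hpgd and Ifi27l2a. Of the fibroblast markers, only required genes were raised in it, and it was left unnamed. Of its 19 members, 16 had 3 or more required genes, and its median tubular share was 0.573%. On day 2 its Mgp level was 14405 CPM, against 13982 CPM in the day 2 members of cluster 1. Acta2 was in 7 and Timp1 in 8 of its 17 day 2 members.

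**Figure D2:**
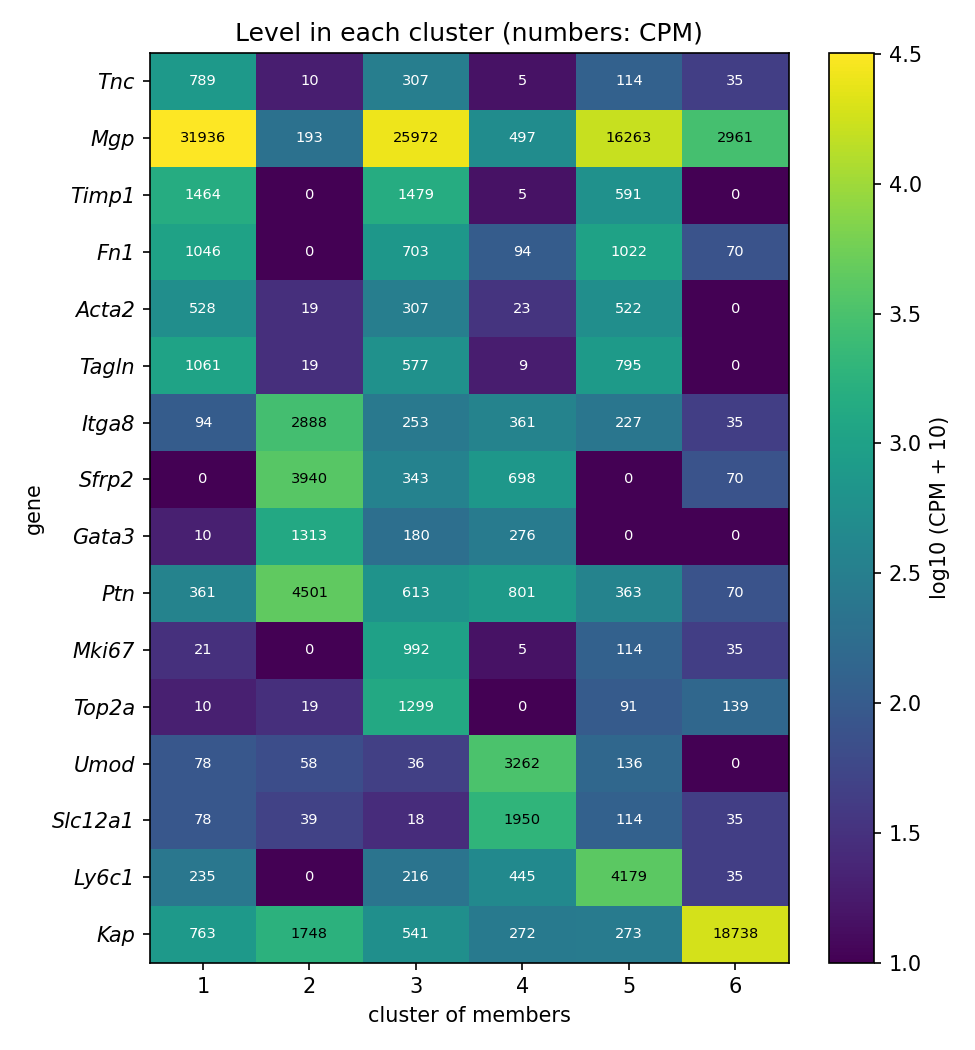
Level (CPM, printed in each cell and coloured on a log10 scale of CPM + 10) of named genes (rows) in the summed members of each cluster (columns). Mgp is highest in clusters 1 and 3, Itga8, Sfrp2 and Gata3 in cluster 2, and Umod in cluster 4.

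The clusters were spread unevenly over the days. The mural and mesangial-like cluster 2 held 15 of 20 control members, 4 of 10 from day 1, none of 40 from day 2 and 1 of 27 from day 4. Of the day 7 members it held none of 15 and 3 of 55, of the day 11 members 8 of 31 and 4 of 8, and of the day 14 members 2 of 4. Members with Itga8 were not absent on day 2, however. An Itga8 UMI was in 10 of the 13 day 2 members of cluster 4 (438 CPM) and 7 of the 17 of cluster 5 (259 CPM). The fibroblast-like cluster 1 held 1 control member, 5 from day 1, 5 from day 2 and 17 from day 4. Of the day 7 members it held 13 of 15 and 40 of 55, of the day 11 members 16 of 31 and 1 of 8, and of the day 14 members 1 of 4. The unnamed cluster 5 held 17 of the 40 day 2 members. A comparison of summed members between day 7 and the control therefore sets mostly cluster 1 cells against mostly cluster 2 cells, and the change of mix and any change of level within a kind of cell cannot be told apart in the sums.

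**Figure D3:**
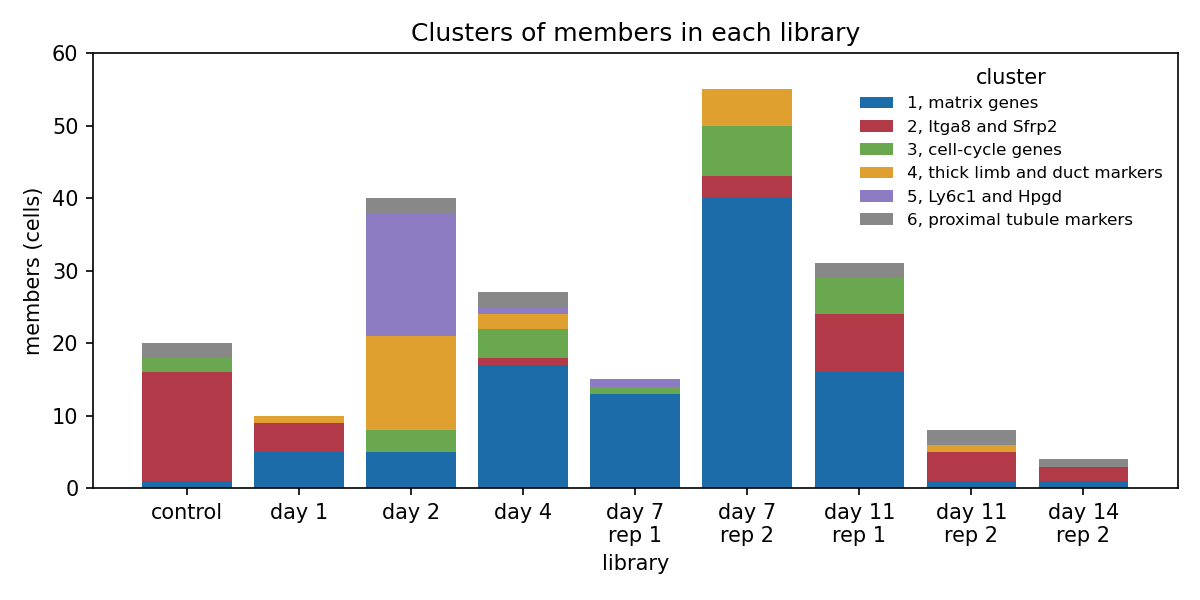
Number of members (vertical axis) in each library (horizontal axis), split by cluster. Cluster 2 makes up 15 of the 20 control members and cluster 1 makes up 40 of the 55 members of the second day 7 library, and day 14 replicate 1, with 0 members, is not drawn.

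Of the required genes, given without a test, Col1a1 and Col3a1 followed the same split, whereas Pdgfra did not and Dcn did only in part. Summed over members, Col1a1 stood at 242 CPM in the control, 2929 CPM at day 1, 1075 CPM at day 2 and 2146 CPM at day 4. The day 7 libraries had 2782 and 3139 CPM, the day 11 libraries 1590 and 52.4 CPM and the day 14 library with members 348 CPM. Col3a1, which encodes type III collagen, was 484 CPM in the control and 9715 and 7897 on day 7. Pdgfra, the PDGF receptor alpha chain of stromal cells, was 228 CPM in the control and 177 in each day 7 library. Dcn made up 64 of 70286 member UMIs in the control and 3 of 17755 on day 1. In the day 7 libraries it made up 20 of 22646 and 375 of 124225. Col1a1 was thus lowest in the smaller day 11 library and the control, whereas Pdgfra was as high in the control as on day 7.

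The matrix gene with the highest level was Mgp, matrix Gla protein, an inhibitor of calcification. Its level was 1992 CPM in the control, 8617 CPM at day 1, 3971 CPM at day 2 and 26760 CPM at day 4. The day 7 libraries had 22874 and 30042 CPM, the day 11 libraries 21821 and 52.4 CPM and the day 14 library 522 CPM. Day 4, both day 7 libraries and the larger day 11 library were high, and the smaller day 11 library, of 8 members, was low. Among members with 3 or more required genes, Mgp was 17329 CPM in the 3 control cells, 24647 and 31567 on day 7 and 36295 in the larger day 11 library. Within cluster 1 the single control cell was at 21247 CPM, the day 7 libraries at 24010 and 37268 and the larger day 11 library at 41771.

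Acta2, smooth muscle actin and the classical myofibroblast gene, had 0 UMIs in the 20 control members, where 3 counts would be 42.7 CPM. It had 6 UMIs in 3 members on day 1, 46 in 14 on day 2 and 20 in 6 on day 4. On day 7 it had 16 UMIs in 6 members and 56 in 22, equal to 707 and 451 CPM. The larger day 11 library had 4 UMIs in 4 members (70.7 CPM), and the smaller one and day 14 had none. Within cluster 1, Acta2 was in 5 of 5 day 2 members (941 CPM), 4 of 17 from day 4 (393 CPM), 6 of 13 (835 CPM) and 17 of 40 (557 CPM) of the day 7 libraries, and 2 of 16 of the larger day 11 library (77.1 CPM). With every member thinned to 500 UMIs, 5 of 15 (33.3%) and 11 of 55 day 7 members had an Acta2 UMI against 0.742% and 0.508% of tubular reference cells in those libraries, and unthinned shares were 40.0% in both. Over all libraries, members held 233 CPM of Acta2 and 431 CPM of Tagln. Kept cells outside the members with at least 2 of the mural genes Rgs5, Notch3, Cspg4, Myh11 and Ren1 held 3192 and 1906 CPM, and since members were barred from Myh11, the choice of cells bears on that difference.

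Of the 137 members with 3 or more required genes, 53 had an Acta2 UMI and 84 had none. Their median depths were 2275 and 1538 UMIs, so detection was easier in the first set. Tagln, the actin-binding protein transgelin, was at 833 CPM in members with Acta2 and 213 CPM in those without. Tnc stood at 878 against 175 CPM. Col1a1 was at 4268 against 1856 CPM, whereas Dcn was at 2034 against 2778 CPM and Cxcl12, a stromal chemokine, at 239 against 529 CPM. These sets pool the members of all libraries, are not balanced over days and carry no test.

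**Figure D4:**
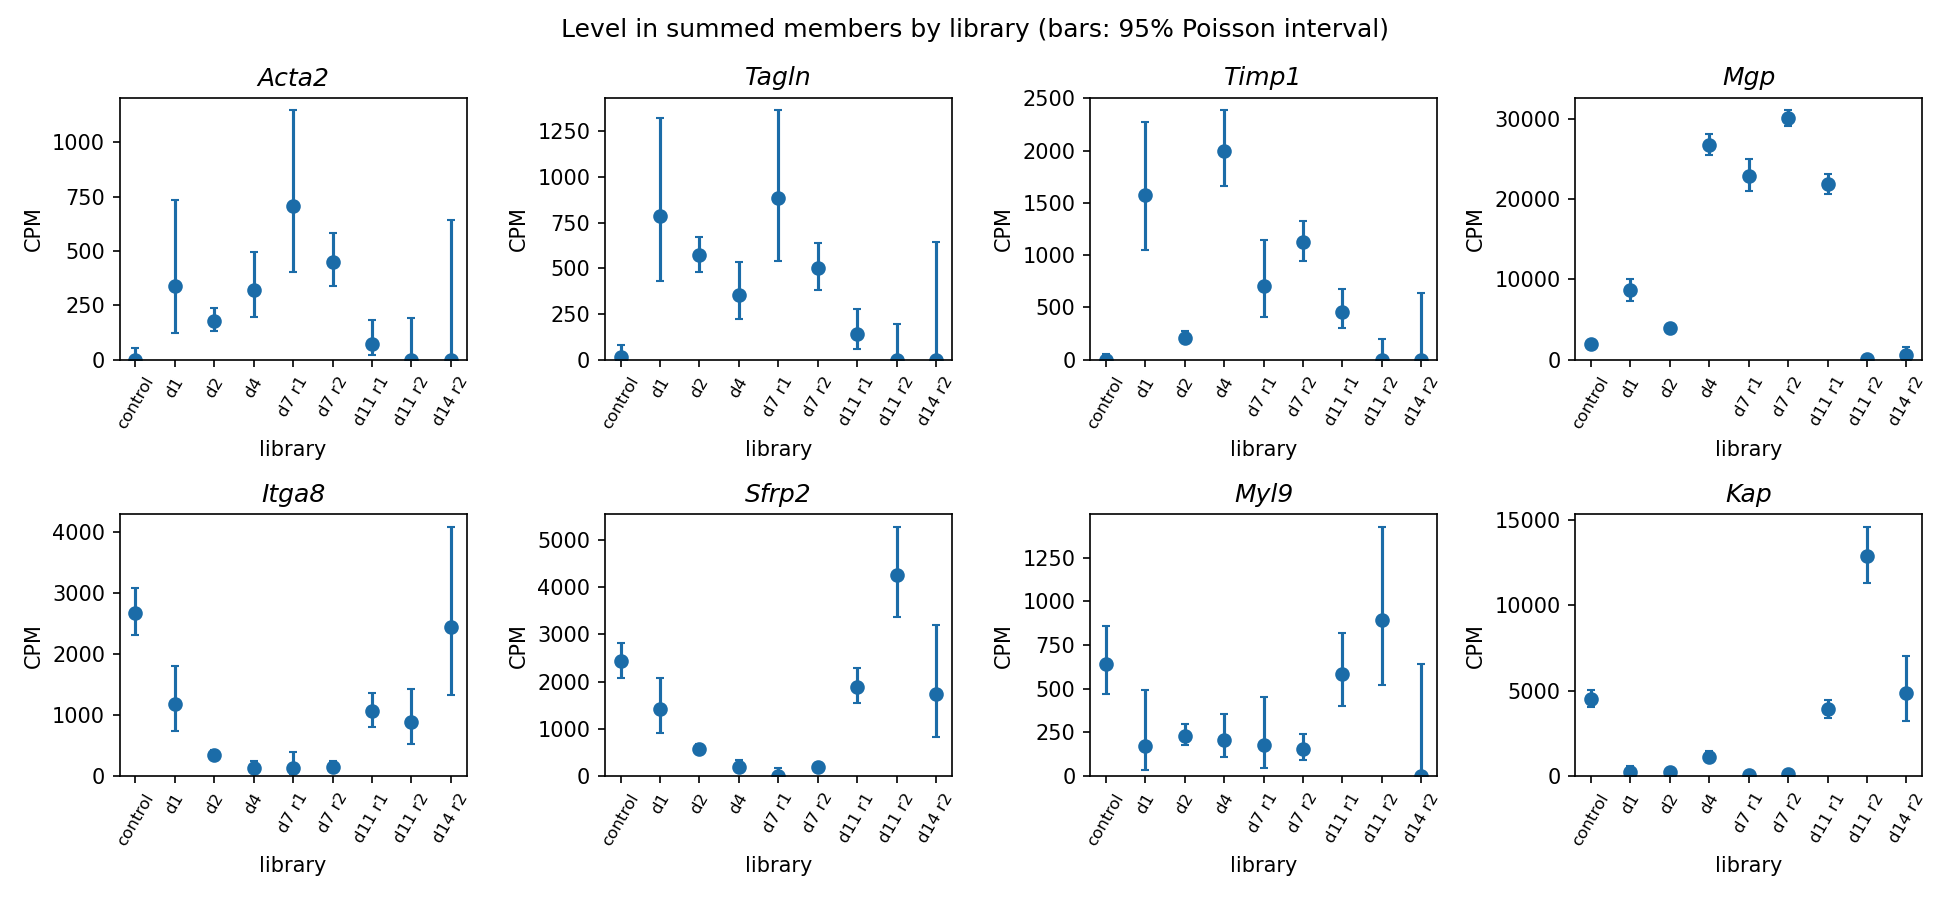
Level (CPM, linear axes from 0) of 8 genes in the summed members of each library, with 95% Poisson intervals that cover counting error only. Acta2 is at 0 in the control and at 707 and 451 CPM on day 7, while Itga8 and Sfrp2 are high in the control and low on days 4 and 7.

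Summed members of day 7 differed from the control in named genes of matrix, contraction and stromal identity. The median mitochondrial share of members moved between the same groups, from 10.1% in the control to 2.75% and 3.65% on day 7 and 9.42% in the larger day 11 library, and its part in the results was not tested. The fit used the 7 libraries with at least 10 members. This left out the smaller day 11 library and both of day 14, so no comparison with day 14 was fitted. With edgeR's quasi-likelihood test and Benjamini-Hochberg adjustment, 229 of 2676 genes (8.56%) passed 0.05, with 110 higher (4.11%) and 119 lower (4.45%) on day 7. The higher genes include 3 that chose the members, Col1a1, Col1a2 and Col3a1, which are counted in these totals and in those of DESeq2 and are read as no result. Without TMM scaling, which shifted the median gene to 0.29 on the log2 scale, the split was 170 higher and 97 lower. The spread rests on 1 residual degree of freedom, the pair of day 7 libraries, every gene was tested against a spread common to genes of its level with none of its own, and the single control library is taken to have the same spread. DESeq2 on the same sums called 20 genes, all among edgeR's, and with every member thinned to 500 UMIs before summing, edgeR called 0 of 442 genes, with 85 at an unadjusted p under 0.05.

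Of 30 other matrix proteins, 25 were tested, and 12 rose and 0 fell, with a median fitted log2 change of 2.79, or 1.80 with genes at 0 in a group set at their bound, against 0.06 over all genes tested. Fn1, fibronectin, had 3 UMIs in the control and 28 and 129 on day 7, a ratio of 22.1 with a counting interval of 7.43 to 108 and a fitted log2 change of 4.44 ± 0.81 (SE, edgeR adjusted p = 2.83e-06). Mgp rose by 3.51 ± 0.66 on the log2 scale (edgeR adjusted p = 8.31e-06). Sparc, a collagen-binding matricellular protein, rose by 1.70 ± 0.58 (edgeR adjusted p = 0.0431) from 2547 CPM in the control to 12364 and 7535 CPM on day 7. Both day 7 libraries lay above the control for these genes. With the smaller day 11 library added to the fit, Mgp (edgeR adjusted p = 0.205) and Sparc (0.470) lost the call. Sparc also lost it without tubular-rich members, those with over 2% of UMIs from tubular genes (edgeR adjusted p = 0.133), and without the tubular clusters 4 and 6 (0.0848).

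Of the 13 tested collagens that the rule did not use, 3 rose and 0 fell, with a median log2 change of 2.11, or 1.93 with bounds. Col15a1, a basement membrane collagen, had 1 UMI in the control and 20 and 88 on day 7 (edgeR adjusted p = 3.29e-06). Col18a1 had 2 UMIs in the control and 16 and 62 on day 7 (edgeR adjusted p = 0.000227). Col14a1 also rose (log2 change 2.11 ± 0.71, edgeR adjusted p = 0.0376). Col6a1 was 2.29 ± 0.84 higher, short of the threshold (edgeR adjusted p = 0.0636), and Col4a1 had a log2 change of -0.03 ± 0.54 (edgeR adjusted p = 0.989). Of 11 tested genes of collagen processing, 4 rose and 0 fell, with a median of 0.74. Loxl2, a collagen cross-linking oxidase, had no UMI in the control and 10 and 54 on day 7, at least 9.01-fold higher (edgeR adjusted p = 2.99e-05).

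Contractile genes moved both ways, 2 higher and 2 lower of 15 tested, with a median of -0.18. Acta2 was at least 10.1-fold higher on day 7 (edgeR adjusted p = 7.32e-06), where no member held more than 13 of its 72 UMIs. Tagln had 1 UMI in the control and 20 and 62 on day 7, a ratio of 34.7 with a counting interval of 6.05 to 1385 (edgeR adjusted p = 2.02e-05). Myl9, a myosin light chain, fell by 2.198 on the log2 scale (SE 0.58, edgeR adjusted p = 0.00391), from 640 CPM to 177 and 153 CPM. The other gene that fell was Des, which encodes desmin. Myh11, which barred a cell, was present in 11 of the 14 barred control cells with at least 2 required genes. On day 7 it was in 1 of 13 and 8 of 19 such cells. Among all kept cells Acta2 stood at 39.3 CPM in the control, with 0 of its 1158 UMIs in members, and at 34.3 and 52.5 CPM on day 7. The part of that bar in the contractile changes was not tested.

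Of 16 genes of proteases and their inhibitors, 11 were tested, and 4 rose and 2 fell. Timp1, an inhibitor of matrix metalloproteinases, had 0 UMIs in the control and 16 and 140 on day 7, at least 21.97-fold higher (edgeR adjusted p = 3.08e-08). On day 7, 1 member held 72 of its 156 UMIs. Ctsl, the lysosomal protease cathepsin L, rose by 3.18 ± 0.68 on the log2 scale (edgeR adjusted p = 0.000119). Adamts5, an aggrecanase, fell by 4.27 (SE 0.56, edgeR adjusted p = 1.1e-11). Mmp2, a gelatinase of stromal cells, had a log2 change of 0.08 ± 0.64 (edgeR adjusted p = 0.974).

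Of the 10 ligand and 8 receptor genes listed for the TGF-beta and PDGF pathways, 4 and 5 were tested. These are too few to compare with the 8.56% of all tested genes that passed. Of 4 tested ligands, Inhba was higher and Gdf10 lower, and 1 member held 52 of the 73 Inhba UMIs of day 7. Of 5 tested receptors, 0 passed in the edgeR test; Pdgfrb had a log2 change of -1.35 ± 0.55 (edgeR adjusted p = 0.106) and Tgfbr2 of 0.79 ± 1.01 (edgeR adjusted p = 0.759). Tgfb1 itself was too low to be tested, with 2 UMIs in the control and 3 and 5 on day 7. Of 10 tested TGF-beta and YAP target genes, 0 rose and 2 fell, Ctgf (log2 change -2.03 ± 0.52, edgeR adjusted p = 0.00255) and Amotl2 (log2 change -3.60 ± 1.11, edgeR adjusted p = 0.018), with a list median of 1.05, or 0.29 with bounds. Amotl2 lost the call without the day 1 library (edgeR adjusted p = 0.0535), and Ctgf, like Col14a1 and Gsn, lost it with the smaller day 11 library added. Postn, periostin, a matrix gene often followed in fibrosis, had a log2 change of 0.16 ± 0.88 (edgeR adjusted p = 0.961). This sum mixes clusters. In the control, cluster 2 held 11 Postn UMIs in 6 of 15 members, and the 1 control member of cluster 1 had 0. On day 7, cluster 1 had Postn in 5 of 13 and 10 of 40 members (365 and 215 CPM).

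Other groups were mixed. Of 14 tested resting fibroblast genes, 7 rose and 3 fell. Igfbp5, an IGF-binding protein, fell by 2.45 on the log2 scale (SE 0.52, edgeR adjusted p = 0.000126). Gsn, an actin-severing protein, rose by 1.93 ± 0.64 (edgeR adjusted p = 0.0355), with 68 of its 124 day 7 UMIs in 1 member, and its change was 0.17 without the second day 7 library. Ly6a, also known as Sca-1, rose by 4.36 ± 0.78 (edgeR adjusted p = 1.79e-06), with 190 of its 320 day 7 UMIs in 1 member, and was 3.13 higher without that library.

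Of 5 tested chemokine and cytokine genes 2 rose, Cxcl14 and the alarmin Il33, both at 0 in the control. Cxcl14, a chemokine of stromal cells, was at least 17.6-fold higher and had 14 and 111 UMIs on day 7 (edgeR adjusted p = 1.41e-07). Cxcl12 had a log2 change of 0.88 ± 0.65 (edgeR adjusted p = 0.508), and Ccl2, a monocyte chemokine at 0 in the control, did not pass (edgeR adjusted p = 0.292). Of 8 tested genes of WNT and NOTCH signalling, 2 rose and 2 fell. Among secreted WNT inhibitors, Sfrp1 rose by 3.05 ± 0.69 (edgeR adjusted p = 0.000361), while Sfrp2 fell by 4.31 (SE 0.57, edgeR adjusted p = 1.64e-11) and Dkk2 fell by 3.09 (SE 0.53, edgeR adjusted p = 6.91e-07). Sfrp2 was at 0 in the first day 7 library, and without the second its fitted log2 change was -10.7.

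Of 8 tested proliferation genes, 0 rose and 1 fell, Top2a, whose 32 control UMIs were all in 1 member. Its log2 change went from -2.64 to -0.88 without the second day 7 library and to -4.23 without the first. Mki67, the proliferation marker, had a log2 change of -0.90 ± 0.81 (edgeR adjusted p = 0.62). Of 19 tested immediate early and heat shock genes, Ier3 rose and Dusp1 fell, and Hsp90aa1 passed narrowly (log2 change -1.53, edgeR adjusted p = 0.0444), a call kept in 4 of 14 alternatives and lost without the day 1 library (0.0629) or the day 11 library (0.0637). Ier3 lost its call without the tubular clusters (edgeR adjusted p = 0.0839) and had a log2 change of 0.71 without the second day 7 library. Fos had a log2 change of -0.35 ± 0.53 (edgeR adjusted p = 0.812). Vim, the filament protein vimentin, had a log2 change of 1.18 ± 0.58 (edgeR adjusted p = 0.232).

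Of the 9 tested mural and mesangial markers, 4 fell on day 7, Itga8, Gata3, Ptn and Agtr1a, and 0 rose, with a median of -1.35. Rgs5, Abcc9 and Cspg4 did not pass, and the first day 7 library lay above the control for each of them. Itga8 fell by 4.36 on the log2 scale (SE 0.57, edgeR adjusted p = 8.47e-12), from 2675 CPM in the control to 132 and 153 CPM on day 7. Within cluster 2, Itga8 was 3224 CPM in the control, 2363 CPM in the 3 day 7 cells and 2746 and 1658 CPM on day 11. Gata3, a transcription factor of mesangial cells and the collecting duct, fell by 5.49 (SE 0.71, edgeR adjusted p = 5.9e-12), and the growth factor gene Ptn by 3.61 (SE 0.54, edgeR adjusted p = 3.11e-09). Gata3 was at 0 in the first day 7 library. Without the second, its fitted log2 change was -9.57 and that of Ptn was -5.21. Without the first, the change of Ptn was -3.08. The summed level of the 14 marker genes was 12648 CPM in the control and 4548 and 2399 CPM on day 7.

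Transcripts listed as markers of other cell types moved between the same groups, and their part in the results above was not tested. The 12 proximal tubule markers summed to 7469 CPM in the control, 1016 and 757 CPM on day 7, and 7350 and 19507 CPM on day 11. Of 8 tested, 6 fell and 0 rose on day 7, led by Kap (log2 change -5.91 ± 0.63, edgeR adjusted p = 4.48e-18). The 10 endothelial markers summed to 1309 CPM in the control, 265 and 322 CPM on day 7 and 1237 CPM in the larger day 11 library, and of 5 tested, Cd34 and Ehd3 fell on day 7 and 0 rose (median log2 change -2.55). The Cd34 call was kept in 7 of 12 alternatives. It was lost, among others, without the day 1 library, the day 11 library or the tubular clusters. The 13 markers of other tubule segments summed to 285 CPM in the control and 5829 and 8863 CPM on day 7. Of 11 tested, 5 rose. Spp1, osteopontin, made up most of the summed level in each day 7 library. It had 3 UMIs in the control and 121 and 691 on day 7 (edgeR adjusted p = 8.47e-12), in 56 of the 70 day 7 members. Of the 145 day 7 UMIs of Slc12a1, 134 were in 1 member of the second day 7 library. Without that library the log2 change of Slc12a1 was -0.98, that of Umod was 0.30 and that of Epcam 0. The 10 macrophage markers had 0 CPM in the control and 751 and 539 CPM on day 7. The 6 neutrophil markers had 0 CPM and 442 and 330 CPM, but only 1 and 2 of them were detected on day 7. Nearly all of that level was G0s2, with 50 UMIs in 26 of the 70 day 7 members. G0s2 was also raised in the fibroblast-like cluster 1. It stood at 245 CPM in members with 3 or more required genes and 10.1 CPM in those with exactly 2. Lyz2, the macrophage lysozyme, and G0s2, counted among the neutrophil markers, both rose from 0 control UMIs (edgeR adjusted p = 0.000321 and 0.000227). The 6 T and NK markers were at 0 in every library.

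By fitted log2 change, which for genes at 0 depends on the prior count, the naming rule picked Timp1, Cxcl14, Plac8, Wfdc2 and Acta2 as higher on day 7. Each had 0 control UMIs, with bounds from at least 10.1-fold to at least 21.97-fold, whereas Spp1 with 3 control UMIs had a ratio of 114 (counting interval 39.0 to 556), so the order is not one of measured folds. Wfdc2 lost the call without the tubular clusters, and 62 of the 94 day 7 Wfdc2 UMIs were in 1 member. The rule picked as lower Cep112, Mrc1, Itga4 and the haemoglobin genes Hba-a2 and Hbb-bt. Cep112 was at least 45.0-fold lower, Mrc1 at least 30.8-fold and Itga4 at least 27.6-fold, with control UMIs spread over 13, 11 and 11 members. All Hba-a2 and Hbb-bt UMIs of the control were in 1 member, and reads of these near-identical globin genes may be split between copies. Of all called genes, 17 of 110 higher and 10 of 119 lower had over 50% of the UMIs of the higher group in 1 member.

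**Figure D5:**
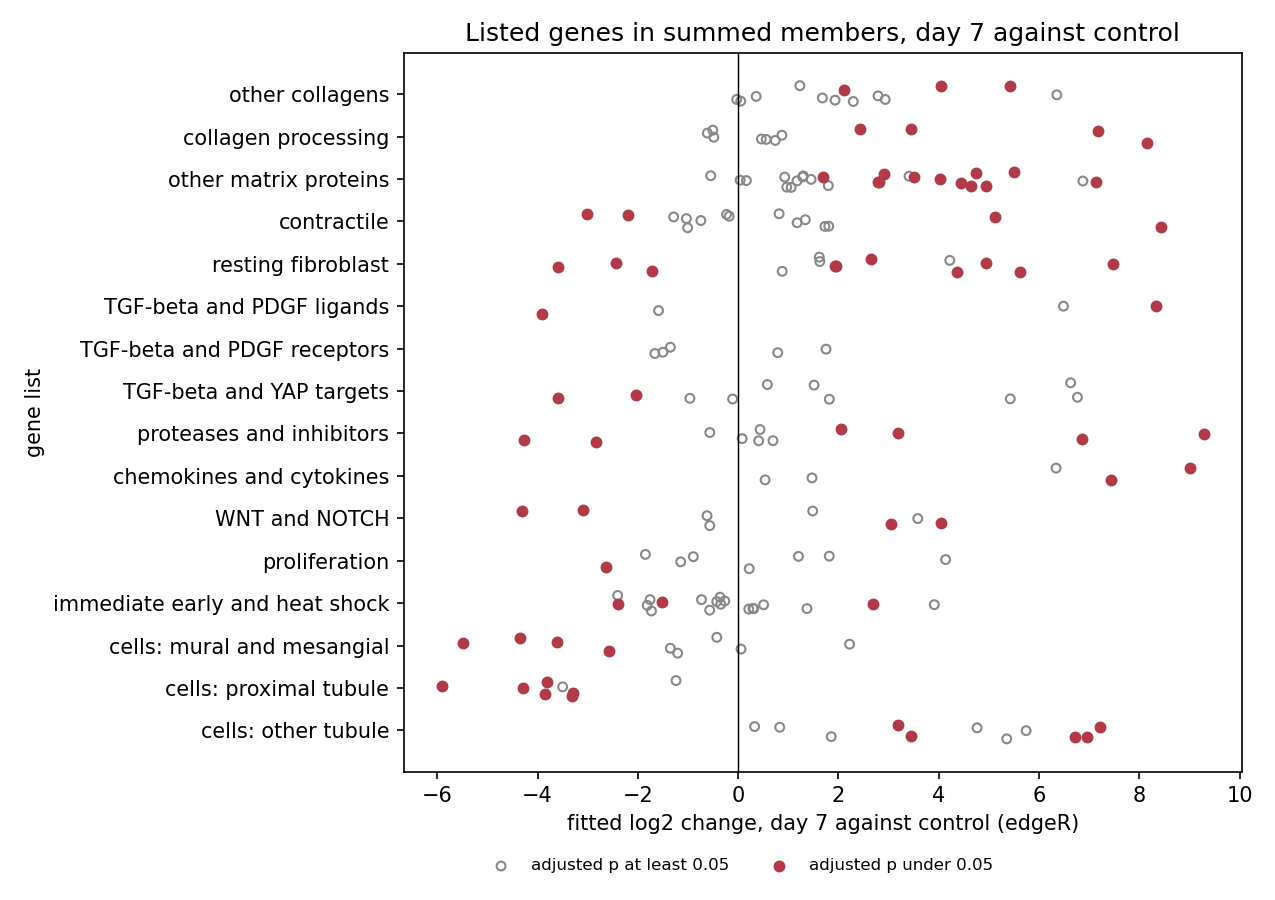
Fitted log2 change of each tested gene, day 7 against control (horizontal axis, edgeR), by gene list (rows). Filled points passed an adjusted p of 0.05: 12 of 25 other matrix proteins are filled and higher, and 4 of 9 mural and mesangial markers are filled and lower, while genes at 0 in the control have large fitted values that are not bounds.

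Between day 11 and the control, 33 of 2676 genes (1.23%) passed edgeR's test, 27 higher (1.01%) and 6 lower (0.224%), and day 11 was 1 library of 31 members. With 1 library on each side, the p-values take their spread from the day 7 pair, which is in neither group, so they compare these 2 libraries under that assumption. Col1a1, Col1a2 and Col3a1 are again among the higher genes. DESeq2 called 2, Mgp and Spp1, and no gene of 442 passed with thinned members (57 at an unadjusted p under 0.05). Of the 25 tested other matrix proteins, 6 rose, among them Mgp (log2 change 3.47 ± 0.70, edgeR adjusted p = 0.000178) and Sparcl1 (5.15 ± 0.91, edgeR adjusted p = 5.53e-06). The smaller day 11 library had Mgp at 52.4 CPM, below the control, and with it in the fit Mgp lost the call (log2 change 2.42, edgeR adjusted p = 0.627), as it did without tubular-rich members (2.94, edgeR adjusted p = 0.162). Timp1 had 26 UMIs in 11 members, at least 10.9-fold above the control (edgeR adjusted p = 0.000109), a call lost without tubular-rich members (edgeR adjusted p = 0.0761), and Cxcl14 had 35 UMIs in 8 members, at least 14.6-fold (edgeR adjusted p = 7.57e-06). Hspa1a, an inducible heat shock protein whose reads may be shared with its near-identical copy Hspa1b, rose by 4.74 ± 0.85 (edgeR adjusted p = 7.69e-06). Apod had 80 UMIs, all in 1 member, and Fbln2 had 18 of 20 in 1 member. Of the 6 genes that fell, 5 had all or nearly all control UMIs in 1 member: 4 haemoglobin genes and Top2a.

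From day 7 to day 11, 64 of 2676 genes (2.39%) passed edgeR's test, 46 higher (1.72%) and 18 lower (0.673%), or 39 and 36 without TMM scaling, which shifted the median gene to -0.29. DESeq2 called 3. With thinned members 0 of 442 passed (37 at an unadjusted p under 0.05). These comparisons share libraries with those above. Acta2 fell by 2.67 on the log2 scale (SE 0.80, edgeR adjusted p = 0.0401), from 707 and 451 CPM to 70.7 CPM, and Ly6a by 3.56 (SE 0.73, edgeR adjusted p = 0.000201). Of the 320 day 7 UMIs of Ly6a, 190 were in 1 member, and its call was lost without the tubular clusters (log2 change -2.03, edgeR adjusted p = 0.128). Of the tested other matrix proteins, collagens and collagen processing genes, 0 of 25, 0 of 13 and 0 of 11 passed. Beside 2.39% of all genes, lists this short may hold none. Without a call, 17, 10 and 9 of them were lower on day 11 and 8, 3 and 2 were higher. Their median log2 changes were -0.35, -0.69 and -0.48, against -0.02 over all genes tested. The mural and mesangial markers Itga8, Gata3, Ptn and Agtr1a rose, 4 of 9 tested, as did Sfrp2 (log2 change 3.96 ± 0.58, edgeR adjusted p = 6.41e-09), Ctgf (2.04 ± 0.52, edgeR adjusted p = 0.0068) and Myl9 (2.08 ± 0.60, edgeR adjusted p = 0.029). Myl9 lost this call without TMM scaling (log2 change 1.82, edgeR adjusted p = 0.0559), and Ctgf lost it with the smaller day 11 library added (1.87, edgeR adjusted p = 0.0581). On day 11, 1 member held 35 of the 60 Itga8 UMIs, and 1 held 14 of the 30 Gata3 UMIs. An Itga8 UMI was in 7 of the 31 members and a Gata3 UMI in 5. Cluster 2 held 8 of 31 members on day 11 and 3 of 70 on day 7.

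Among members with 3 or more required genes, this comparison called 12 genes. Igfbp5 rose (log2 change 2.40 ± 0.58, edgeR adjusted p = 0.00696), as did Lum, the collagen-binding proteoglycan lumican (3.91 ± 1.08, edgeR adjusted p = 0.0475), and Apod. Acta2 did not pass there (log2 change -1.76, edgeR adjusted p = 0.693). Itga8 reversed, to -1.38, and Gata3, Ptn, Ctgf, Myl9, Dusp1 and Hspa1a lost their calls there, with Gata3 at a log2 change of 0, Myl9 at 1.05 and Dusp1 at 1.36. Sfrp2 lost its call as well (edgeR adjusted p = 0.802), at a log2 change of 4.32. Among the others, Kap, Miox, Acsm2 and Spink3 are proximal tubule genes that rose, mt-Rnr1 and mt-Rnr2 are mitochondrial ribosomal RNAs that rose, and Ly6a and Slc12a1 fell. Heat shock genes Hspa1a and Hspa1b and the phosphatase gene Dusp1 rose between the full sums (edgeR adjusted p = 3.1e-06, 0.00191 and 7.57e-05).

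The genes most like Col1a1 across the 7 libraries, out of 1067 compared in log2 CPM of members, were Vim (Spearman rho 0.964), Hist1h2bc (0.929), Serpinh1 (0.929), Pmepa1 (0.893) and Mt2 (0.857). Serpinh1 encodes the collagen chaperone HSP47. The 7 points share library depth and cluster mix, and no p is attached.

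In the mouse GRCm38 assembly (GENCODE vM21 annotation), Acta2 lies on chromosome 19 from 34241090 to 34255590 on the minus strand and Timp1 on chromosome X from 20870166 to 20874735 on the plus strand. Mgp lies on chromosome 6 from 136872435 to 136875823 and Itga8 on chromosome 2 from 12106632 to 12301922, both on the minus strand. All 4 are protein-coding. Exons of Itga8 and of Tagln overlap exons of genes on the opposite strand, and those of Acta2, Timp1 and Mgp overlap none.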

How the data were processed

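Members and gene lists were chosen with earlier results of these data known. Per the labels' protocols, single-cell suspensions were captured by Drop-seq and libraries of 3' cDNA ends were made with an altered Nextera XT kit. The authors deposited whole-number counts for every gene and barcode, read here as UMIs. The submitters' processing notes name Bowtie2 2.2.7 and mm10. The counting tool and filters are not given in the sources used here.

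Members' counts were summed per library and fitted in edgeR 4.0.16 (1 term per group, TMM, filterByExpr, quasi-likelihood F test, Benjamini-Hochberg 0.05) over libraries with at least 10 members. Member sums there held 17755 to 257628 UMIs. The SE is the log2 change over the square root of F. Folds against 0 use a floor of 3 counts over the group on TMM-scaled totals. Named genes were the required genes, the 5 largest separated changes per direction with average log2 CPM of at least 6, up to 3 called genes per list, a followed set, and the 5 most like Col1a1 with log2 CPM of at least 8. The followed genes without a call on day 11 are given no value. Some genes that met these rules are not reported here. Markers named from cluster tables were chosen after their values were seen. On simulated counts for day 7 against control (1880 genes tested, biological coefficient of variation 0.275, as estimated), 50 of 50 genes at 16-fold higher, 24 of 49 at 4-fold higher, 18 of 33 at 16-fold lower, 5 of 35 at 4-fold lower and 6 of 1713 unchanged genes were called. At a simulated coefficient of 0.6 (2103 genes tested), 0 of 50 at 16-fold higher and 1 of 36 at 16-fold lower were called. DESeq2 1.42.0, scanpy 1.11.5 (Scrublet, Leiden) and scipy 1.17.1 served the alternatives, clusters and exact tests. Alternatives were another tool, no TMM, no low-count filter, 2 groups only, 3 required genes, and members with over 2% tubular UMIs, doublets or over 25% mitochondrial UMIs left out. Each library was also left out in turn, and 4 alternatives were added after seeing the data.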

Additional observations from a re-analysis of the deposited data

How the results depend on the processing

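The counts of called genes differed between tests and settings. For day 7 against control, 229 genes became 20 with DESeq2, which gave no adjusted p for 2023 genes, and 76 without a filter on low counts. For day 11 against control, 33 became 2 with DESeq2, 8 without the filter, 51 without TMM scaling and 19 without members of over 2% tubular UMIs. For day 11 against day 7, 64 became 3 with DESeq2, 9 without the filter and 12 with members of 3 or more required genes, a rule that left too few control members for the other comparisons. The cause was not tested, except that without the filter 14686 genes were tested in place of 2676. Day 14 was not fitted under any setting. With only the groups compared, day 11 against control had 1 library on each side and gave no test.

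Alternatives added after seeing the data gave 0, 0 and 0 genes with members thinned to 500 UMIs (442 genes tested). With libraries of at least 5 members, which adds the smaller day 11 library, the counts were 163, 17 and 91 in the order above, the last with 46 higher and 45 lower genes. Without the clusters led by tubular markers they were 251, 46 and 60. A replicate block over days 7 and 11 called 0 of 754 genes in edgeR, with 142 at an unadjusted p under 0.05. The libraries of days 7 and 11 share only a number: the correlation of same-numbered deviations was 0.102 over 754 genes, from 1 pair of differences.

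Leaving out each library that left a test gave 224 to 238, 34 to 45 and 56 to 67 genes in the order above. Leaving out either day 7 library left no residual degree of freedom, so values only were obtained. Of the called values of named genes, 8 of 110 moved by more than their SE without the first day 7 library, and 38 of 109 did and 1 changed sign without the second. The rho of the member share ran from -0.752 (exact permutation p = 0.0397, without day 1) to -0.386 with 1 library left out.

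Some signs changed. Itga8 from day 7 to day 11 was -1.38 with 3 required genes. For day 7 against control, values with 1 library left out ran from -0.98 (without the second day 7 library) to 3.94 for Slc12a1, from -0.45 (without the same library) to 0.35 for Mmp2, from -1.16 to 0.14 (without the first day 7 library) for Fos, from -1.29 to 0.047 (without the second) for Mki67 and from -0.099 to 0.11 for Col4a1. Mmp2 was -0.0086 with DESeq2. Col4a1 was 6.62e-05 with DESeq2, 0.22 without TMM, 0.078 without the filter, 0.11 with 2 groups, 0.012 without tubular-rich members, 0.0091 without doublets, 0.035 with up to 25% mitochondrial UMIs, 0.38 thinned, 0.038 with at least 5 members and 0.029 without the tubular clusters. Of 110 called values for named genes, DESeq2 called 19, did not call 75 and gave no adjusted p for 16, and none changed sign there.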
